A study of Mus musculus with 28 samples.

Results

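Single neurons of the mouse motor cortex were split by their level of Gad1, the gene of glutamate decarboxylase, the enzyme that makes the inhibitory transmitter GABA. The neurons were chosen by the measured value itself: neurons with a Gad1 value over 4 are called Gad1-high, and those with a value of 4 or less Gad1-low. Of 28 neurons, 6 were Gad1-high and 22 Gad1-low. Because Gad1 chose the neurons, its values are a description and support nothing further. The values are on a log scale and base 2 was assumed, so that a difference of 1 is a doubling if the assumption holds. The values of the table fall into separate modes, and 4 is where they are rarest between the lowest mode and the rest.

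The study collected the contents of single neurons of the primary motor cortex from CD1 mice at postnatal day 30. All of the mice, those exposed to vehicle included, had received 3 plasmids by in utero electroporation at embryonic day 15. These were pHSE-FLPo, in which a heat shock response element drives the FLPo recombinase, the FRT reporter pFRT-RFP that this recombinase switches on, and pCAGIG, which gives GFP. An RFP-positive neuron is therefore a cell in which the heat shock element was active at some time, and an RFP-negative one carries no such record. The groups were 15 RFP-positive EtOH, 7 RFP-negative EtOH and 6 RFP-negative PBS neurons. The dams had been injected with ethanol, at 4.0 or 1.0 g per kg, or with phosphate-buffered saline (PBS) at embryonic days 16 and 17, and which dose a neuron received is not stated. The labels name no animal for a neuron, so neurons of 1 litter or animal cannot be told apart from independent ones, and no p-value is given for any comparison.

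Neurons of the cortex fall into excitatory pyramidal neurons, which release glutamate, and inhibitory interneurons, which release GABA. Interneurons are born in the ventral forebrain and migrate into the cortex, whereas plasmids electroporated into the cortical wall mainly enter the precursors of pyramidal neurons. Gad1 is high in interneurons and is commonly used to recognise them, together, in some classes, with the transcription factor Satb1, the potassium channel Kcnc2 or the cannabinoid receptor Cnr1.

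Gad1 (ENSMUSG00000070880) lies on chr2:70553072-70602014, plus strand, in GRCm38, and no exon of another annotated gene overlaps its exons. The 6 Gad1-high neurons, in rising order, were RFP-negative EtOH neuron 4 at 4.01, RFP-positive EtOH neuron 8 at 6.87, RFP-negative EtOH neuron 7 at 8.0, RFP-positive EtOH neuron 12 at 9.38, RFP-positive EtOH neuron 2 at 9.83 and RFP-negative PBS neuron 4 at 13.22. Wherever 6 values of Gad1-high neurons are listed below, they follow this order. The Gad1-low neurons ranged from 1.25 to 2.90 with a median of 2.06. The 2 neurons nearest to the threshold were RFP-negative EtOH neuron 4 on the inside and RFP-negative PBS neuron 2, at 2.90, on the outside. The mean was 8.55 ± 3.09 in Gad1-high and 2.03 ± 0.49 in Gad1-low neurons (SD over neurons, n = 6 and 22). The value of RFP-negative PBS neuron 4 was the highest deposited value of any gene in any neuron, and within the other 5 Gad1-high neurons Gad1 ranked between place 91 and place 337 of 1024 genes. In the Gad1-low neurons it ranked between places 363 and 999.

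**Figure D1:**
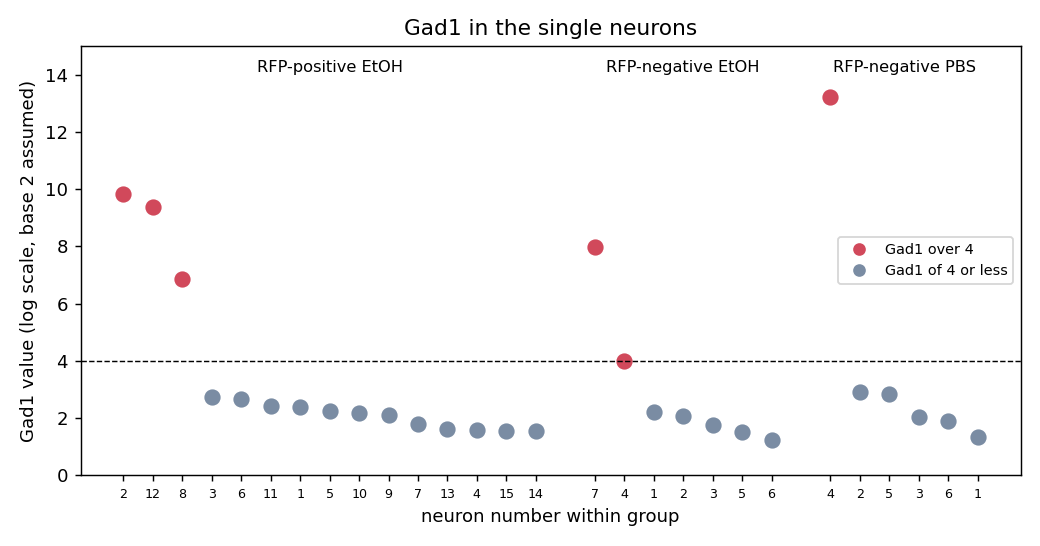
The vertical axis gives the Gad1 value of each neuron on the deposited log scale, with base 2 assumed, and the horizontal axis the neurons of each group, and the dashed line is the threshold of 4. Gad1-high neurons (red) occur in all 3 groups, from 4.01 to 13.22, and RFP-negative EtOH neuron 4 lies just above the line.

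Gad1-high neurons made up 3 of 15 RFP-positive EtOH neurons (20%, exact 95% interval 4.33 to 48.1%), 2 of 7 RFP-negative EtOH neurons (28.6%, 3.67 to 71.0%) and 1 of 6 RFP-negative PBS neurons (16.7%, 0.421 to 64.1%). The intervals are Clopper-Pearson intervals, cover counting error only and overlap almost completely. They count each neuron as independent, which the labels cannot show, so no statement on a difference between the groups is drawn from them. Over all groups the share was 21.4% (8.30 to 41.0%).

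The sets did not stand apart in how much of the table was in use. The number of genes over 4 was 291 to 434 in Gad1-high neurons, median 332.5, against 273 to 421, median 338, in Gad1-low neurons. Read depth is unknown. RFP-positive EtOH neuron 2 had the most genes over 4 of all neurons, 434. It was also 1 of 4 neurons with fewer than 5 values exactly equal to a value of the same gene in another neuron, a feature of unknown origin, and the other 3 of those neurons were Gad1-low. For the main gene lists, values without single neurons are given where they move most.

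Of 60 interneuron markers looked for, only 6 were in the table, Gad1 itself and 5 others. All 5 had a higher mean in Gad1-high neurons, by a median of 1.72, while the median over all 1023 other genes was -0.09. A higher mean of any size was seen in 46.5% of all genes. Within the groups the median of the list was 1.24 among RFP-positive EtOH, 0.13 among RFP-negative EtOH and 3.52 among RFP-negative PBS neurons, and 3 of the 5 genes were higher in all 3 groups, against 8.31% of all genes. In 2 of them, Satb1 among these, the mean was at least 2 higher, a difference that 5.67% of all genes reached. Without RFP-negative EtOH neuron 4, the neuron nearest to the threshold, the median of the list was 2.69, and without each of the others in turn it was 1.21 to 2.48. Only 5 genes carry this description, of which 4 are described singly, and the neurons differed widely in each of the 4.

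Satb1, a chromatin organiser needed for the maturation of some interneurons and present in some pyramidal neurons too, was at 2.02, 3.26, 10.25, 2.64, 7.47 and 5.80 in Gad1-high neurons, against 1.31 to 9.96 with a median of 2.19 in Gad1-low neurons. It was over 4 in 3 of 6 Gad1-high and 3 of 22 Gad1-low neurons, with a difference of 2.15 that was 1.15 without RFP-negative EtOH neuron 7. The sets overlapped.

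Kcnc2, a potassium channel of fast-spiking cells, was at 2.00, 1.10, 1.96, 2.14, 4.50 and 9.63 in Gad1-high neurons, and at 1.33 to 8.44 with a median of 1.79 in Gad1-low neurons. A high value was thus seen in RFP-negative PBS neuron 4 and a moderate one in RFP-positive EtOH neuron 2, and 4 of 22 Gad1-low neurons were also over 4. Cnr1, the cannabinoid receptor of a class of basket cells, was at 1.87, 1.87, 1.58, 8.29, 1.37 and 10.64 in Gad1-high neurons, and at 1.24 to 8.43 with a median of 1.95 in Gad1-low neurons, where 5 of 22 were over 4. Nap1l5, a nucleosome assembly gene, was at 1.86, 2.92, 10.07, 9.77, 10.17 and 5.67 in Gad1-high neurons and over 4 in 4 of 6 Gad1-high and 9 of 22 Gad1-low neurons, so that it was common in both sets. The differences of means were 1.00 for Kcnc2, 1.34 for Cnr1 and 1.72 for Nap1l5. Without RFP-negative PBS neuron 4 that of Kcnc2 was -0.21 and that of Cnr1 0.07, so both rest on this neuron, and without RFP-positive EtOH neuron 12 that of Cnr1 was 0.54. Kcnc2 was lower within RFP-positive EtOH neurons (-0.18) and Cnr1 within RFP-negative EtOH neurons (-0.17). The difference of Nap1l5 was 1.03 to 2.69 with single Gad1-high neurons left out.

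Counted by neuron, the number of Satb1, Kcnc2, Cnr1 and Nap1l5 over 4 was 0, 0, 2, 2, 3 and 4, so that within the Gad1-high set it was nowhere lower in a neuron with more Gad1. In the Gad1-low neurons it was 0 to 2 with a median of 1. The sum of the 4 log-scale values was 7.75, 9.15, 23.9, 22.8, 23.5 and 31.7 in the Gad1-high neurons and 7.64 to 22.04 in the Gad1-low neurons. The 4 neurons with the highest Gad1 were thus above every Gad1-low neuron in this sum, and the 2 with the lowest Gad1 lay at its lower end. Counting values over 3 gave 0, 1, 2, 2, 3 and 4, and counting values over 5 gave 0, 0, 2, 2, 2 and 4.

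Markers of pyramidal neurons were present in the Gad1-high set. Of 33 looked for, only 7 were in the table. Of these 7, 2 had a higher and 5 a lower mean in Gad1-high neurons, with a median difference of -0.68. That median was 0.15 among EtOH neurons alone and 0.63 among RFP-positive EtOH neurons alone, so its direction depends on the groups taken. Within RFP-negative EtOH neurons it was -0.98 and within RFP-negative PBS neurons -3.39. Without RFP-positive EtOH neuron 2 it was -1.33, and without RFP-negative EtOH neuron 7 it was -0.40. The number of these markers over 4 was 5, 6, 3, 5, 7 and 3 in Gad1-high neurons and 2 to 7, median 5, in Gad1-low neurons. Nrgn, neurogranin, a calmodulin-binding protein of pyramidal cells, was at 9.31, 7.88, 5.85, 9.06, 9.51 and 3.13 in Gad1-high neurons, and at 5.85 to 9.61 with a median of 8.55 in Gad1-low neurons. RFP-negative PBS neuron 4, the neuron with the highest Gad1, was the only one of 28 with Nrgn below 4. Mef2c, a transcription factor of activity-dependent synapse development that both pyramidal neurons and some interneurons use, was at 8.89, 9.66, 2.68, 3.13, 10.50 and 10.05, and over 4 in 4 of 6 Gad1-high and 21 of 22 Gad1-low neurons. Ncdn, neurochondrin, was at 10.35, 8.65, 9.27, 7.51, 9.90 and 1.61 in Gad1-high neurons and averaged 7.88 ± 3.23, against 5.73 ± 2.93 in Gad1-low neurons (SD over neurons, n = 6 and 22). Without RFP-negative PBS neuron 4, its difference of means, 2.16, became 3.41.

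By these markers, the set cannot be named as 1 cell type. In RFP-negative PBS neuron 4, Gad1 was at the top of the table with all 4 of these markers over 4 and Nrgn below 4. In RFP-positive EtOH neurons 2 and 12, 3 and 2 of the 4 markers were over 4 together with Nrgn at 9.51 and 9.06. RFP-negative EtOH neuron 7 had 2 of the 4 markers over 4 and Nrgn at 5.85, which was also the lowest value among Gad1-low neurons. RFP-negative EtOH neuron 4 and RFP-positive EtOH neuron 8 had 0 of the 4 markers over 4 and Nrgn at 9.31 and 7.88. Neuropeptides that mark interneuron classes were not analysed here, as the table lists none of those looked for.

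**Figure D2:**
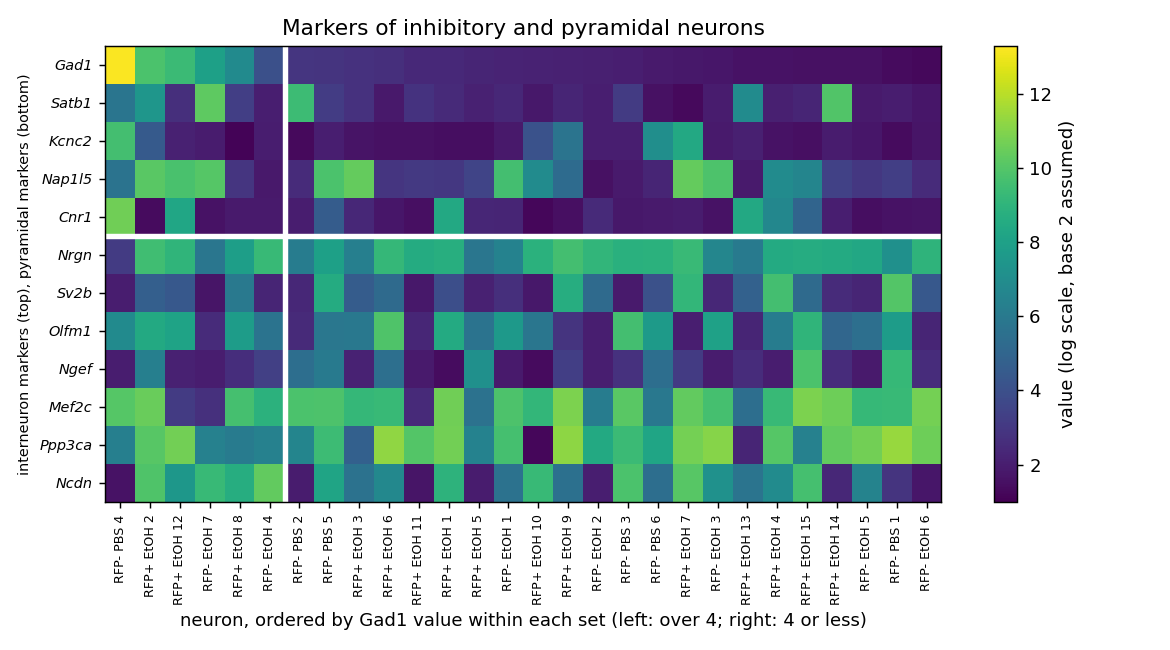
Colour gives the value on the deposited log scale, with base 2 assumed, of each marker (rows) in each neuron (columns), with Gad1-high neurons left of the white vertical line and Gad1-low neurons right of it. Gad1 and 4 further interneuron markers stand above the horizontal line and 7 pyramidal markers below it, and the number of the 4 that are over 4 is 4, 3, 2, 2, 0 and 0 from the left.

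Markers of glia were looked for in the same way, since the collected contents of a neuron can hold material of neighbouring cells. The sum over 3 astrocyte markers was 6.68 to 22.7 in Gad1-high and 5.32 to 22.3 in Gad1-low neurons. Over 7 oligodendrocyte markers it was 28.2 to 51.2 in Gad1-high and 22.5 to 54.4 in Gad1-low neurons, and over 3 microglia markers 6.17 to 22 in Gad1-high and 5.56 to 22 in Gad1-low neurons. Single neurons had high values. Mbp, myelin basic protein, was at 10.63 in RFP-negative PBS neuron 4 and 8.48 in RFP-positive EtOH neuron 2, Csf1r, a receptor of microglia, at 11.36 in RFP-negative EtOH neuron 7, and Ptgds, a prostaglandin synthase of oligodendrocytes and meninges, at 12.49 in RFP-positive EtOH neuron 12. Mbp was over 4 in 2 of 6 Gad1-high and 7 of 22 Gad1-low neurons, and Csf1r in 1 of 6 Gad1-high and 3 of 22 Gad1-low neurons. Markers of endothelial, mural and blood cells were not in the table. The part of glial material in the differences below was not tested.

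Across the 1023 genes other than Gad1, 58 had a mean at least 2 higher in Gad1-high neurons (5.67%) and 22 a mean at least 2 lower (2.15%), together 80 genes (7.82%). A lower mean of any size was seen in 53.5% of genes. In none of the 1023 did the values of the 2 sets fail to overlap. The usual spread of a gene over neurons was of the same size, with a median pooled SD of 2.53. Leaving out 1 Gad1-high neuron at a time gave 64 to 80 higher and 24 to 40 lower genes. The lower count rose most without RFP-negative EtOH neuron 4, to 39, and without RFP-positive EtOH neuron 2, to 40. Means over fewer neurons scatter more, and both counts grew whichever Gad1-high neuron was left out. To hold the reporter and the exposure constant, the difference was also taken within each group. It had the same sign in all 3 groups in 298 genes (29.1%), and 85 of these were higher (8.31%) and 213 lower (20.8%) in Gad1-high neurons. In the PBS group the Gad1-high side is 1 neuron. Only 33.7% of all values were over 4, so that 1 neuron can often lie below a mean of several. Signs of 3 differences also agree often by chance, and no chance share was computed. These counts are therefore not read as a general shift. The genes described next are the 12 with the largest higher and the 12 with the largest lower mean among genes of 1 sign in all 3 groups.

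Purb, a protein that binds purine-rich single-stranded DNA and RNA and travels with messenger RNA into dendrites, had the largest higher mean. It lies on chr11:6467599-6475917, minus strand, in GRCm38. Its values were 10.41, 8.75, 10.10, 6.47, 8.96 and 5.54 in Gad1-high neurons, all over 4 as in 3.81% of genes, and 1.46 to 10.17 with a median of 2.57 in Gad1-low neurons, of which 6 of 22 were over 4. It averaged 8.37 ± 1.96 in Gad1-high and 3.87 ± 2.93 in Gad1-low neurons (SD over neurons, n = 6 and 22), a difference of 4.50. Within the groups the difference was 4.88 among RFP-positive EtOH neurons, 5.63 among RFP-negative EtOH neurons and 0.76 among RFP-negative PBS neurons, so that it was small in the last.

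Genes of signalling and membrane scaffolds followed. Gnaq, the G protein subunit that couples many receptors to phospholipase C, was at 6.43, 5.83, 9.72, 11.05, 7.5 and 10.64 in Gad1-high neurons, and at 1.06 to 10.46 with a median of 4.78 in Gad1-low neurons. It was over 4 in 6 of 6 Gad1-high and 12 of 22 Gad1-low neurons, and its differences were 3.72 among RFP-positive EtOH neurons, 2.38 among RFP-negative EtOH neurons and 5.54 among RFP-negative PBS neurons. Epb41l3, which links membrane proteins to the spectrin and actin skeleton, had values of 11.39, 10.14, 6.23, 2.87, 3.02 and 10.73 in Gad1-high neurons. It was high in 3, moderate in 1 and low in 2 of them, and over 4 in 7 of 22 Gad1-low neurons. Actr2, a subunit of the complex that starts actin branches, was over 4 in 5 of 6 Gad1-high and 13 of 22 Gad1-low neurons with a difference of 2.78.

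Among genes of translation, the cytosolic ribosomal protein Rpl3 was at 3.50, 10.67, 8.19, 9.42, 8.94 and 7.44 in Gad1-high neurons, and at 1.67 to 9.22 with a median of 3.01 in Gad1-low neurons, a difference of 3.93. In RFP-negative EtOH neuron 4 it was low and in the other 5 high. Reads of Rpl3 may be shared with near-identical copies in the genome. mt-Rnr1, the small ribosomal RNA of mitochondria, was at 7.51, 10.30, 8.40, 11.53, 11.58 and 10.40 in Gad1-high neurons, against 2.68 to 10.74 with a median of 6.61 in Gad1-low neurons, a difference of 3.47. It was over 4 in 6 of 6 Gad1-high and 15 of 22 Gad1-low neurons. The large mitochondrial ribosomal RNA mt-Rnr2 was over 4 in every neuron, with 10.61 ± 1.73 in Gad1-high and 9.54 ± 2.05 in Gad1-low neurons (SD over neurons, n = 6 and 22).

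The remaining genes of this kind were of organelles and redox defence. Prdx2, a peroxiredoxin that removes hydrogen peroxide, was at 10.60, 9.86, 2.23, 9.44, 10.14 and 9.61 in Gad1-high neurons. It was low in RFP-negative EtOH neuron 7 and near 10 in the other 5, while in Gad1-low neurons it ranged from 1.95 to 10.67 with a median of 4.56. Its exons overlap those of Junb and Rnaseh2a on the opposite strand, by 173 and 177 bases, and the libraries do not keep strand. Atp5j, a coupling subunit of the ATP synthase, was at 6.44, 1.81, 9.62, 9.81, 8.43 and 5.73, a difference of 2.86, with 0.02 among RFP-negative PBS neurons. Lamp1, a membrane glycoprotein of lysosomes, was over 4 in 4 of 6 Gad1-high and 2 of 22 Gad1-low neurons. Its difference of 2.77 was 1.74 without RFP-negative PBS neuron 4, in which it was at 10.68. Mmgt1, a subunit of the complex that inserts proteins into the endoplasmic reticulum, was at 10.65 in RFP-negative EtOH neuron 7 and 10.40 in RFP-negative PBS neuron 4 and below 4 in the other 4 Gad1-high neurons. Its difference of 2.84 was 1.76 and 1.81 when each of these neurons was left out. Pcm1, a scaffold of centriolar satellites, was over 4 in 3 of 6 Gad1-high and 2 of 22 Gad1-low neurons, a difference of 2.93. Tlcd1 was over 4 in 5 of 6 Gad1-high and 6 of 22 Gad1-low neurons, a difference of 3.20, and 506 bases of its exons overlap the ribosomal protein gene Rpl23a on the opposite strand.

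**Figure D3:**
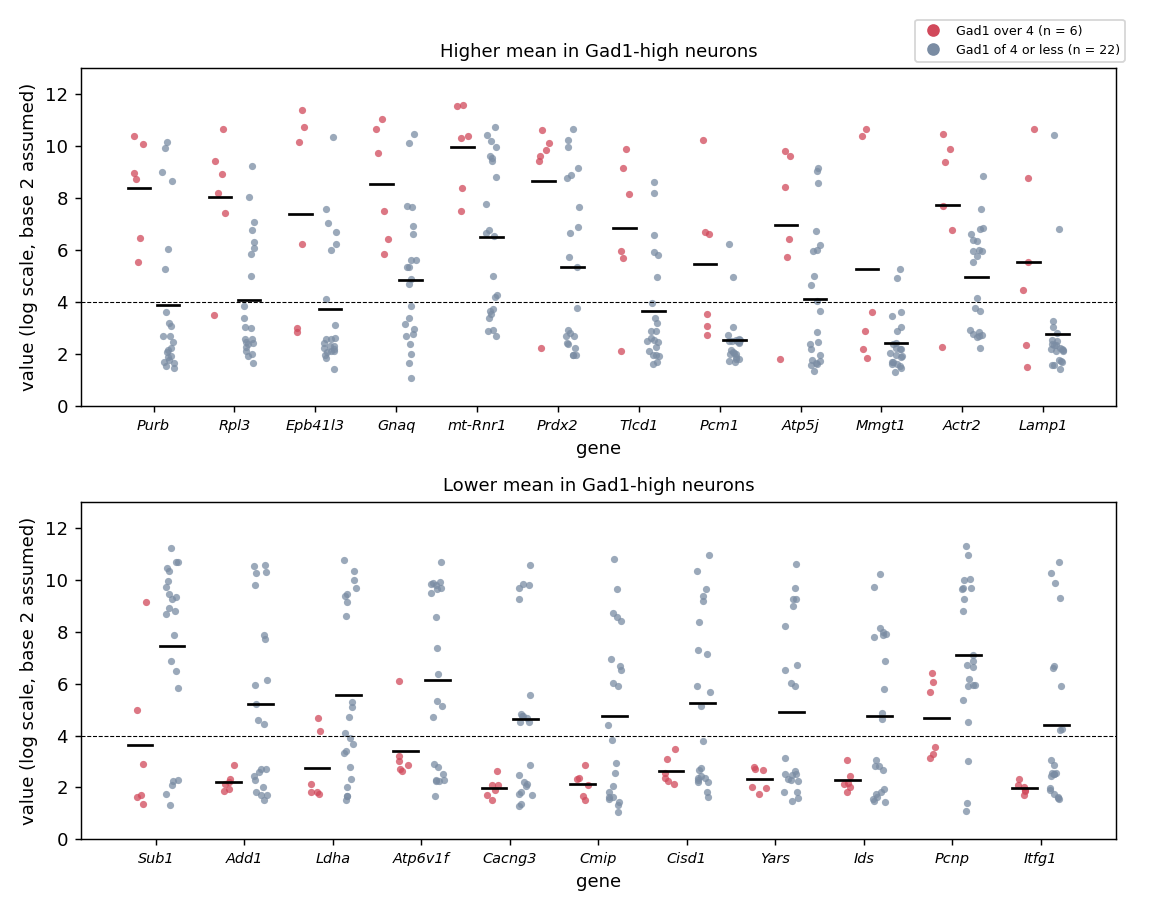
The vertical axis gives the value of each neuron on the deposited log scale, with base 2 assumed, for 12 genes with the largest higher (top) and 11 of those with the largest lower (bottom) mean in Gad1-high neurons, with red points for the 6 Gad1-high and grey points for the 22 Gad1-low neurons. Short bars are means and the dashed line is a value of 4: all 6 red points of Purb, Gnaq and mt-Rnr1 lie above it, and all 6 of Add1, Cacng3, Cmip, Cisd1, Yars, Ids and Itfg1 lie below it.

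Of the 12 genes with the largest lower mean, 8 were below 4 in every Gad1-high neuron and over 4 in 9 to 12 of 22 Gad1-low neurons. Being over 4 in 0 of 6 Gad1-high neurons was itself common, in 175 genes (17.1%). Being so while over 4 in at least 9 of 22 Gad1-low neurons was seen in 12 genes (1.17%), among them Cacng3, Add1, Cisd1, Ids, Cmip, Cacna1e, Yars, St13, Cct4 and Itfg1. With a limit of 3 in place of 4 there were 13 such genes, and with 5 there were 10. A set of 6 neurons is small for a statement on absence, and a transcript below 4 may still be present.

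Cacng3, an auxiliary subunit of AMPA-type glutamate receptors, lies on chr7:122670492-122769393, plus strand. It was at 2.09, 1.72, 1.52, 2.10, 2.63 and 1.91 in Gad1-high neurons, all low, and at 1.30 to 10.58 with a median of 4.51 in Gad1-low neurons, of which 12 of 22 were over 4. The difference of means was -2.66, with -2.94 among RFP-positive EtOH neurons, -2.97 among RFP-negative EtOH neurons and -1.58 among RFP-negative PBS neurons.

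Others belong to housekeeping roles. Sub1, a nuclear coactivator of transcription, had the largest lower mean. It was at 5.00, 1.62, 2.90, 1.72, 9.13 and 1.36 in Gad1-high neurons, highest in RFP-positive EtOH neuron 2, and at 1.34 to 11.24 with a median of 8.87 in Gad1-low neurons, of which 17 of 22 were over 4. It averaged 3.62 ± 3.02 in Gad1-high and 7.46 ± 3.36 in Gad1-low neurons (SD over neurons, n = 6 and 22), a difference of -3.84. Add1, an adducin that caps actin filaments at the spectrin skeleton, was at 2.12, 2.33, 1.88, 1.96, 2.87 and 2.2 in Gad1-high neurons, against 1.53 to 10.57 with a median of 4.52 in Gad1-low neurons, a difference of -3.0. Ldha, the lactate dehydrogenase subunit favoured in glycolytic cells, was over 4 in 2 of 6 Gad1-high and 12 of 22 Gad1-low neurons, a difference of -2.85. Atp6v1f, part of the vacuolar ATPase, which acidifies vesicles and lysosomes, was over 4 in 1 of 6 Gad1-high and 14 of 22 Gad1-low neurons, a difference of -2.73. Ids, a lysosomal sulfatase, Cisd1, an iron-sulfur protein of the outer mitochondrial membrane, and Yars, the tyrosyl-tRNA synthetase, were each over 4 in 0 of 6 Gad1-high neurons. Their differences were -2.48 for Ids, -2.61 for Cisd1 and -2.59 for Yars. Cmip and Itfg1 had differences of -2.62 and -2.41. Pcnp, a nuclear protein, was over 4 in 3 of 6 Gad1-high and 19 of 22 Gad1-low neurons, a difference of -2.41.

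**Figure D4:**
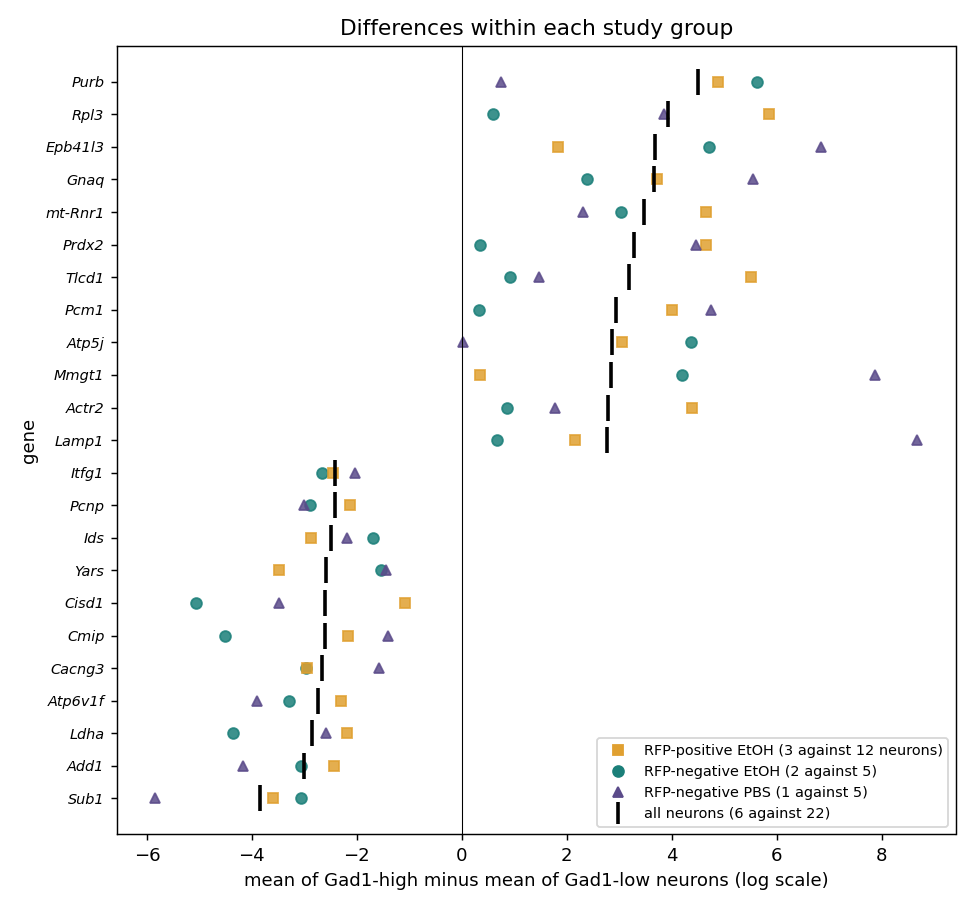
The horizontal axis gives the mean of Gad1-high minus the mean of Gad1-low neurons on the log scale for 23 named genes (rows), taken within RFP-positive EtOH (squares), RFP-negative EtOH (circles) and RFP-negative PBS neurons (triangles) and over all neurons (bars). The genes were chosen for 1 sign in all 3 groups, so the side of the line is given by the choice. The sizes vary between groups, as for Lamp1 with 2.15, 0.66 and 8.68 in that order.

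The genes of GABA handling did not share 1 direction. Of 8 in the table beside Gad1, 5 had a higher and 3 a lower mean in Gad1-high neurons, with a median difference of 0.99 against -0.09 over all genes. Within the groups it was 1.74 among RFP-positive EtOH, -0.07 among RFP-negative EtOH and -0.49 among RFP-negative PBS neurons, so that its direction turned in the last 2. This median was 0.20 without RFP-positive EtOH neuron 2 and 0.31 without RFP-positive EtOH neuron 12. Each of the 3 lower ones was lower in all 3 groups, as were 20.8% of all genes. Gabra2, an alpha subunit of the GABA-A receptor, was over 4 in 0 of 6 Gad1-high and 5 of 22 Gad1-low neurons with a difference of -1.52. The higher ones included Abat, the enzyme that breaks GABA down. Abat was at 2.22, 5.78, 11.46, 1.70, 4.74 and 2.72 in Gad1-high neurons, with its highest value in RFP-negative EtOH neuron 7, and its difference was 1.80, or 0.46 without that neuron and -0.60 within RFP-negative PBS neurons. Gabbr1, a subunit of the metabotropic GABA-B receptor, was over 4 in 3 of 6 Gad1-high and 8 of 22 Gad1-low neurons, a difference of 1.45 that was 0.55 without RFP-positive EtOH neuron 8, 0.88 without RFP-positive EtOH neuron 2 and 0.91 without RFP-negative EtOH neuron 7. Within RFP-negative PBS neurons it was -1.14. Gabarapl1, a trafficking and autophagy protein, was over 4 in 6 of 6 Gad1-high and 15 of 22 Gad1-low neurons, a difference of 1.73, and Gabarap differed by 0.52, which was negative without RFP-positive EtOH neuron 12 (-0.55) or 2 (-0.48).

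The list of voltage-gated sodium and calcium channels, with Cacng3 counted among it for its family, had the lowest median difference of the lists with at least 3 genes, -1.58 over 5 genes. It lay between -1.69 and -1.53 when single Gad1-high neurons were left out. This median is the difference of Scn3a, which was low in all 6 Gad1-high neurons, so leaving 1 out could hardly move it. With medians over neurons in place of means, the list median was -0.42. Cacna1e, the pore of R-type calcium channels, was over 4 in 0 of 6 Gad1-high and 10 of 22 Gad1-low neurons and at 1.59, 3.69, 1.93, 2.00, 1.84 and 2.15 in the Gad1-high ones, a difference of -2.21. Scn3a, a sodium channel most abundant before birth, was over 4 in 0 of 6 Gad1-high and 6 of 22 Gad1-low neurons, a difference of -1.58. These 2 genes and Cacng3 were lower in all 3 groups. The other members, the sodium channel subunit Scn3b and the channel regulator Fgf13, had higher means in Gad1-high neurons, by 1.21 and 0.68. Without Cacng3, the list holds Cacna1e and Scn3a with lower means and these 2 with higher means. Its median without Cacng3 is midway between the -1.58 of Scn3a and the 0.68 of Fgf13. That is above the median of the pyramidal markers, -0.68, so the list is the lowest only with Cacng3 counted. The potassium channels numbered 3 and all had higher means, with a median of 1.0 that was 0.39 without RFP-positive EtOH neuron 8 and -0.53 within RFP-negative EtOH neurons. Kcnv1, a silent subunit, was at 10.69 in RFP-positive EtOH neuron 8 and below 4 in the other 5 Gad1-high neurons.

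Among genes of energy metabolism, those of oxidative phosphorylation that are encoded in the nucleus had higher means more often than lower ones. Of 24 nuclear genes of oxidative phosphorylation, 17 had a higher and 7 a lower mean in Gad1-high neurons. In 6 the mean was at least 2 higher and in none at least 2 lower, while over all genes these shares were 5.67% and 2.15%. The 6 were the ATP synthase subunits Atp5j (2.86) and Atp5f1 (2.29), the cytochrome c oxidase subunits Cox5b (2.84) and Cox4i1 (2.80), Uqcrh of complex III (2.47) and Ndufb11 of complex I (2.42). The median difference of the list was 0.73, 0.40 without RFP-positive EtOH neuron 2 and 1.14 without RFP-positive EtOH neuron 8. Within the groups it was 0.87 among RFP-positive EtOH, 0.01 among RFP-negative EtOH and 1.69 among RFP-negative PBS neurons. Between 8 and 20 of the 24 genes were over 4 in a Gad1-high neuron, median 17, and between 6 and 19, median 12.5, in a Gad1-low neuron.

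Cox4i1 was at 5.87, 1.99, 9.07, 10.95, 10.48 and 6.96 in Gad1-high neurons, and at 1.64 to 9.96 with a median of 3.98 in Gad1-low neurons. Cox5b was at 6.09, 8.39, 3.02, 10.07, 5.99 and 5.87 in Gad1-high neurons, against 1.17 to 8.97 with a median of 2.91 in Gad1-low neurons. In each of the 2 genes 1 Gad1-high neuron was low, a different one for each. Within RFP-negative EtOH neurons the difference turned, to -0.33 for Cox4i1 and -0.77 for Cox5b, while in both other groups it was positive. Genes encoded in the mitochondrial genome had a median difference of -0.04 over 11 genes, 5 higher and 6 lower. Within the groups their median was 1.09 among RFP-positive EtOH, -1.64 among RFP-negative EtOH and 2.08 among RFP-negative PBS neurons, and with single Gad1-high neurons left out it was -0.44 to 0.91. Whether the nuclear and the mitochondrial genes differ from each other was not tested. Of 7 genes of glycolysis, 4 had a higher and 3 a lower mean, with a median of 0.42, or 0.99 without RFP-positive EtOH neuron 2 and 0.81 without RFP-positive EtOH neuron 8. The neuronal enolase Eno2 was at 8.69, 7.26, 3.70, 10.46, 10.41 and 9.47 in Gad1-high neurons with a difference of 2.64, and the aldolase Aldoc differed by 2.29. Within RFP-negative EtOH neurons the differences were -1.92 for Eno2 and -0.59 for Aldoc, and in both other groups they were positive. Aldoc, which is also an astrocyte marker, was at 9.74 in RFP-positive EtOH neuron 8 and 8.94 in RFP-negative PBS neuron 4, and its difference was 1.27 without the first and 1.43 without the second. Ldha was at least 2 lower, as given above.

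Genes of transmitter release had 8 higher and 5 lower means in Gad1-high neurons among 13, with a median difference of 0.59. It was 0.25 without RFP-positive EtOH neuron 2, 1.23 without RFP-negative EtOH neuron 4 and 1.00 without RFP-negative PBS neuron 4, and -1.20 within RFP-negative PBS neurons. Napa, the SNAP adaptor that helps to take apart used fusion complexes, was at 10.20, 6.47, 10.21, 11.95, 8.98 and 3.10 in Gad1-high neurons, low in RFP-negative PBS neuron 4 and high in 4 others, and differed by 2.87. In the RFP-negative PBS neurons it was lower in the Gad1-high neuron, with a difference of -3.34. Cplx1, a complexin, and Rab3a, a vesicle GTPase, differed by 1.74 and 1.72. Syngr3, a vesicle membrane protein, was over 4 in 1 of 6 Gad1-high and 9 of 22 Gad1-low neurons, a difference of -2.21.

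Of 8 calcium-binding proteins, 4 had a higher and 4 a lower mean, with a median of -0.03 that was -0.63 to 0.39 with single neurons left out. The calmodulin genes, which encode 1 identical protein, differed in direction. Calm2 was at 11.91, 5.52, 9.21, 9.60, 11.17 and 10.39 in Gad1-high neurons, and at 9.53 to 12.55 with a median of 11.73 in Gad1-low neurons, a difference of -1.83. RFP-positive EtOH neuron 8, at 5.52, and RFP-negative EtOH neuron 7, at 9.21, were below every Gad1-low neuron. With single Gad1-high neurons left out the difference was -2.28 to -1.0, the smaller size without RFP-positive EtOH neuron 8. Calm3 was at 9.37, 9.02, 6.58, 9.63, 9.63 and 6.19 in Gad1-high neurons, all over 4, against 1.23 to 10.05 with a median of 6.32 in Gad1-low neurons, a difference of 2.32.

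Of 31 genes of the axon and cytoskeleton, 17 had a higher and 14 a lower mean in Gad1-high neurons. In 5 it was at least 2 higher and in none at least 2 lower, beside 5.67% and 2.15% of all genes. Tubb3, the neuronal beta tubulin, was at 6.79, 12, 8.36, 10.34, 10.63 and 3.02 in Gad1-high neurons, low in RFP-negative PBS neuron 4 alone, and at 1.93 to 11.32 with a median of 3.49 in Gad1-low neurons, a difference of 3.52. Map1a, a microtubule-associated protein of mature neurons, was over 4 in 6 of 6 Gad1-high and 11 of 22 Gad1-low neurons with a difference of 2.53. It is 1 of 4 genes over 4 in all Gad1-high and at most 11 of 22 Gad1-low neurons (0.391% of genes), with Purb, Ywhag and Gng3. Actb (2.2), Ank2 (2.13) and Tuba1a (2.10) completed the 5. Within RFP-negative PBS neurons the differences of Tubb3 and Tuba1a were -0.35 and -1.12. The median of the list was 0.26. It was -0.21 without RFP-positive EtOH neuron 2 and up to 0.78 without the others in turn, and -0.27 within RFP-negative PBS neurons. Tubulins and actins have near-identical copies, with which they may share reads.

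Heat shock chaperones, of interest because the reporter is driven by a heat shock element, were 8 higher and 8 lower among 16, with a median of 0.07 that was -0.34 to 0.09 with single neurons left out. St13, a partner of Hsp70, was over 4 in 0 of 6 Gad1-high and 10 of 22 Gad1-low neurons, and Cct4, a subunit of the chaperonin that folds actin and tubulin, in 0 of 6 Gad1-high and 9 of 22 Gad1-low neurons. The differences were -2.08 for St13 and -1.77 for Cct4. Among 20 ribosomal protein genes 11 had a higher mean, with a median of 0.19 that was -0.14 without RFP-positive EtOH neuron 12. Rpl14 differed by 2.54 and Rpl4 by -1.65 (-2.60 without RFP-negative EtOH neuron 4), so that Rpl3 does not stand for its family. The immediate early genes Fos and Junb, which neuronal activity switches on, were over 4 in 1 of 6 Gad1-high and 9 of 22 Gad1-low neurons for Fos, and in 1 of 6 Gad1-high and 9 of 22 Gad1-low neurons for Junb, and the 1 Gad1-high neuron was RFP-positive EtOH neuron 2 in both.

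**Figure D5:**
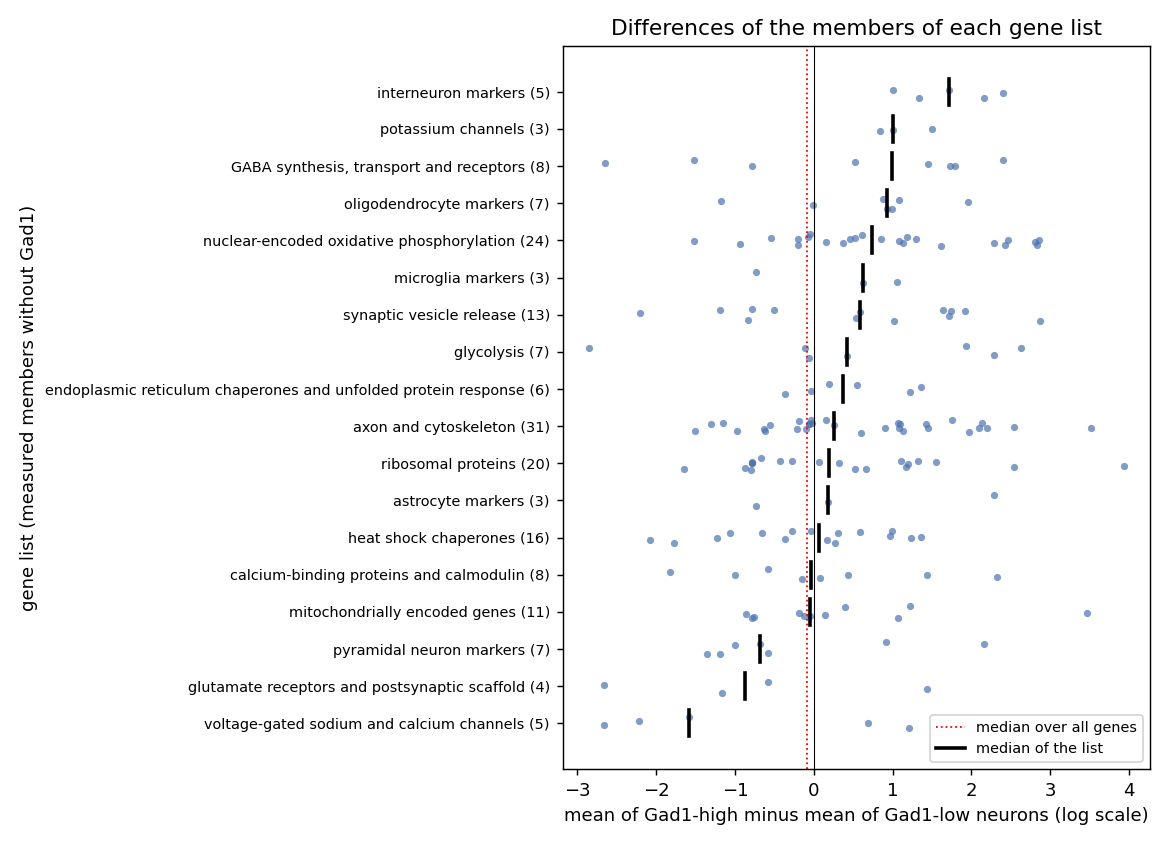
The horizontal axis gives the mean of Gad1-high minus the mean of Gad1-low neurons on the log scale, with 1 point per measured gene of each list (rows, number of genes in brackets) and a bar at the list's median. The dotted line is the median over all genes, -0.09. The interneuron markers are at the top with 1.72. The voltage-gated sodium and calcium channels, with Cacng3 counted among them, are at the bottom with -1.58. Most lists spread on both sides of 0.

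Gad1-high neurons resembled each other little more than they resembled the rest. Spearman's rank correlation over the 1023 other genes averaged 0.222 over the 15 pairs of Gad1-high neurons, 0.208 over the 132 pairs of a Gad1-high with a Gad1-low neuron and 0.182 over the 231 pairs of Gad1-low neurons. These pairs share neurons, and the values also depend on how many genes are in use in a neuron, so they are a description. The neuron most similar to a Gad1-high neuron was itself Gad1-high in 2 of 6 cases, and for Gad1-low neurons it was Gad1-high in 10 of 22. RFP-positive EtOH neuron 2, with the most genes over 4, was the most similar neuron of 10 of the 28.

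Over all 28 neurons, the genes whose values followed Gad1 most closely by Spearman's correlation were Nme7 (0.70), a member of the nucleoside diphosphate kinase family, then Tlcd1 (0.59), Prdx6 (0.59), a peroxiredoxin, Brk1 (0.59), a subunit of an actin-regulating complex, and Mmgt1 (0.57). These are the highest of 1023 values, and 22 of the 28 neurons differ in Gad1 only within the low mode. Nme7 was at 5.16, 6.09, 5.89, 9.44, 11.19 and 9.73 in Gad1-high neurons, which follows the order of Gad1 except in the third and the last place. In the Gad1-low neurons it ranged from 1.18 to 9.73 with a median of 5.94. Its exons overlap those of Atp1b1 by 575 bases and of Blzf1 by 189 bases on the opposite strand. The lowest values belonged to Tmem237 (-0.61), Arhgef12 (-0.61), Trim32 (-0.57), the GABA-A receptor subunit Gabra2 (-0.57) and Cacng3 (-0.55).

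Kcnn2, a calcium-activated potassium channel, was over 4 in 2 of 3 Gad1-high and 4 of 12 Gad1-low RFP-positive EtOH neurons, and in 0 neurons of the other groups. The Gad1-high ones were RFP-positive EtOH neurons 8 at 9.77 and 2 at 7.46, and the Gad1-low neurons reached at most 6.22.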

How the data were processed

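Each library held the contents of 1 motor cortex neuron, amplified with a SMARTer kit for low input and tagged with Nextera XT, then read for 51 cycles from 1 end, per the labels' protocols. The kits do not keep strand. CASAVA 1.8 and the FASTX-Toolkit served to separate and clean the reads, according to the same protocols. Bowtie2, Cufflinks 2.2.1 and GRCm38 are named in the submitters' processing notes. The authors deposited 1 table of 1024 genes in 28 neurons, with values on a log scale that were taken as log2. The base is not stated, the table holds genes above an unstated cut-off, and depth is unknown.

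All 28 columns were matched to samples by title. The labels of the PBS neurons disagree in the time course field, which mentions EtOH. Titles and exposure labels were followed. The series' design text counts 5 PBS neurons, and the 6 that are labelled so were used.

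The neurons and the gene lists were chosen with earlier results of these data known. Neurons were split at a Gad1 value of 4. For each of 1023 other genes, the mean of Gad1-low neurons was subtracted from that of Gad1-high neurons, over all neurons and within the 3 groups, with no filter and no pseudocount. A difference of at least 2 was counted as large. No p-value is given, because the split uses the same table and no label names the animals. The named genes were the 12 with the largest difference in each direction among genes of 1 sign in all 3 groups (predicted genes, pseudogenes, clones, Xist and Y-linked genes were passed over), Kcnn2, all measured interneuron markers and GABA genes, the 5 with the highest and the 5 with the lowest Spearman correlation with Gad1, and the 3 with the largest absolute difference of each other list. Some of these genes are not reported here. Other members of lists are named where a count is spelled out, and were chosen after their values were seen.

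The lists numbered 25, with 9 of cell type markers and 16 of pathways. Lists not described in the text are those of upper layers (2 genes, median difference -0.22), deep layers (1 gene, 0.64), glutamate receptors and scaffold (4 genes, -0.87), the sodium pump (1 gene, -0.72) and endoplasmic reticulum chaperones (6 genes, 0.37). Of 1024 identifiers, 1020 had an entry in GENCODE M21, from which the coordinates were taken (1-based). Of 85 named genes, 29 have exons that overlap another gene, 22 of them on the opposite strand, so their values can include its reads. The calculation was tested on simulated data. Python 3.11.15, pandas 2.3.3, NumPy 2.4.6 and SciPy 1.17.1 were used.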

Additional observations from a re-analysis of the deposited data

Results flagged for a closer look

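Within the Gad1-high set, and for Gad1 also within the study's groups, 110 sets of values were searched for a neuron far from all others, and 17 were found. The limits used would flag about 1 in 20 sets of normally distributed values. The values here fall into separate modes, so that rate does not apply, and the 17 cannot be read as an excess. No explanation was tested for any of the 17.

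Gad1 itself was far from the rest of its group in RFP-negative EtOH neuron 7 (8.0, others 1.25 to 4.01) and in RFP-negative PBS neuron 4 (13.22, others 1.35 to 2.90). The split itself used Gad1. RFP-positive EtOH neuron 2 stood above the other Gad1-high neurons in its median over GABA genes (7.12, others 2.18 to 3.28) and over axon and cytoskeleton genes (8.48, others 4.85 to 6.16). It also did so in Syngr3 (4.45, others 1.62 to 1.83), Junb (6.48, others 1.41 to 3.16) and Fos (10.23, others 1.98 to 2.80).

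RFP-positive EtOH neuron 8 stood above the others in its median over 3 potassium channels (9.77, others 1.89 to 4.50), in Kcnv1 (10.69, others 1.21 to 2.26) and, below 4, in Cacna1e (3.69, others 1.59 to 2.15). RFP-negative EtOH neuron 7 stood apart in 4 genes. It was low in Prdx2 (2.23, others 9.44 to 10.60) and high in Csf1r (11.36, others 2.07 to 2.74), Atp6v1f (6.08, others 2.62 to 3.22) and St13 (3.97, others 2.29 to 2.53). RFP-negative EtOH neuron 4 was low in mt-Rnr2 (7.36, others 10.49 to 12.31) and high in Arhgef12 (8.64, others 1.41 to 2.07). RFP-negative PBS neuron 4 was low in Ncdn (1.61, others 7.51 to 10.35).

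In 4 of 105 quantities, every Gad1-high neuron lay above the mean of the Gad1-low neurons of its group in RFP-positive EtOH and below that mean in RFP-negative EtOH. The difference between these groups was not tested, and each rests on 3 and 2 neurons. The reverse pattern was looked for too. With so few neurons such patterns also arise by chance, and no chance share was computed. The quantities, with their difference in RFP-positive EtOH and then in RFP-negative EtOH, were the median over oligodendrocyte markers (2.37 and -0.76), over potassium channels (3.43 and -0.085) and over calcium-binding proteins and calmodulin (1.56 and -1.32), and Ptgds (4.91 and -0.58). Ptgds is itself among the oligodendrocyte markers, so these entries are not separate.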

How the results depend on the processing

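The counts at a difference of 2, the list medians and the named genes were recomputed under 19 settings, of which leaving out both RFP-negative PBS neuron 4 and RFP-positive EtOH neuron 2 was chosen after seeing the data. The count of genes with 1 sign in all 3 groups was recomputed where all 3 groups still held both sets, and the count of genes over 4 in no Gad1-high neuron with limits of 3 and 5. A Gad1 threshold of 3 selects the same neurons. The number of genes with a mean at least 2 higher in Gad1-high neurons, 58, was 99 with medians over neurons, 122 with logarithms of arithmetic means and 144 among RFP-positive EtOH neurons alone, and 64 to 80 without single Gad1-high neurons. The number at least 2 lower, 22, was 36 with medians, 377 with arithmetic means, 34 with a Gad1 threshold of 6, 36 among EtOH neurons, 75 among RFP-positive EtOH neurons, 41 without the 4 neurons that share few exactly equal values, 59 without RFP-negative PBS neuron 4 and RFP-positive EtOH neuron 2, and 24 to 40 without single neurons. Means over fewer neurons scatter more, and both counts grew when neurons were left out. With arithmetic means the median of the voltage-gated sodium and calcium channels was -4.27 instead of -1.58, and with medians over neurons it was -0.42. The median over all genes was -0.15 and -0.21 after scaling neurons to the same upper quartile or the same median of values over 4, and -0.73 with arithmetic means, against -0.09. Of 1596 differences of 84 named genes, 42 in 15 genes changed sign. The 42 genes with a difference of at least 2 kept theirs in these settings, which their selection made likely. RFP-negative EtOH neurons alone and RFP-negative PBS neurons alone were not among the settings. Within these groups some of the 42 genes turned. Examples are Ncdn (-4.04) and Napa (-3.34) within RFP-negative PBS neurons and Eno2 (-1.92) within RFP-negative EtOH neurons. No paired analysis was possible because the split by Gad1 pairs no neurons and no test was made. Depth per neuron is unknown.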
